A study of Mus musculus with 36 samples.

Results

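The axon guidance ligands and receptors described here are 65 protein-coding mouse genes of the Eph, ephrin, semaphorin, plexin, neuropilin, Slit, Robo, Unc5 and Dcc families. They were chosen by symbol, not by any change in level, and were required to have at least 10 counts in at least 3 of the 36 libraries. All 65 candidates among the 51912 gene IDs of the count table met that requirement, and all 65 passed the filter on low counts that preceded the tests. The set comprised 31 ligands (5 ephrins A, 3 ephrins B, 3 Slits and 20 semaphorins) and 34 receptors (9 Eph A, 5 Eph B, 9 plexins, 2 neuropilins, 4 Robos, 4 Unc5 receptors and Dcc). Plxnb3, the least abundant, reached 10 counts in only 6 libraries and Epha6 in 11, so their early values rest on few reads.

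Polyadenylated RNA was sequenced from HM1 mouse embryonic stem cells, 1 line, during differentiation towards spinal motor neurons in a study of the tempo of that process. Cells were plated on day -3 in N2B27 with 10 ng/ml bFGF, and from day -1 they received 10 ng/ml bFGF with 5 µM CHIR99021, 10 µM SB431542 and 2 µM DMH1. The result is neuromesodermal progenitors, the cells of the tail bud that form spinal cord and mesoderm. Day 0 libraries (labelled control) came from these cells. From day 0 all cultures received 100 nM RA (retinoic acid) and 500 nM SAG, an agonist of Smoothened that turns on Hedgehog signalling. They were collected at days 0.5, 1, 1.5, 2, 2.5, 3, 3.5, 4, 5, 6 and 7, with 3 biological replicates at each of the 12 time points. No culture without RA and SAG was sampled after day 0, so RA, SAG and elapsed time cannot be told apart. Any change in bFGF, CHIR99021, SB431542 or DMH1 at day 0 cannot be told apart from them either. Whether replicates were separate cultures is not given, and p-values then measure the spread between these libraries, which may be technical.

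Growing axons steer by cues in their surroundings. Slits and netrins are secreted, Slits mostly repelling axons through Robo receptors, and netrin-1 attracting them through Dcc or repelling them through Unc5 receptors. Ephrins sit on the cell surface and bind Eph receptor tyrosine kinases, often signalling into both cells at a contact. Semaphorins are secreted or membrane-bound ligands of plexins, with neuropilins as co-receptors for most secreted class 3 members. In the spinal cord these families direct commissural axons across the floor plate and motor axons out to muscle, and several of them also act outside neurons, in blood vessels, epithelia and the early embryo.

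Library totals ran from 26567321 to 35757989 counts, of which the 65 genes took 0.214% to 0.758%, and mitochondrial genes took 0.95% to 1.92%. The spread among replicates exceeded counting noise, and 0 pairs of libraries were identical. Levels below are TPM (a share of all transcripts, corrected for transcript length) for replicates 1, 2 and 3 in that order, or mean ± SD (n = 3). Changes are log2 fold changes of the later over the earlier time point with an approximate SE, from edgeR's quasi-likelihood test on the deposited expected counts over 17990 genes, and a gene was called at a Benjamini-Hochberg adjusted p under 0.05. Levels of cell type markers changed over the course. The summed TPM of 12 neuronal markers averaged 178 at day 0.5, 869 at day 2 and 3791 at day 4. That of 8 motor neuron markers was highest at day 3 (280.2) and lay at 16.0 at day 7, and that of 8 floor plate markers reached 2941 at day 6. Markers of non-neural cells were also present. The sum of 9 mesenchymal markers averaged 130.0 at day 4 and 943 at day 7. The 15 endothelial markers summed to 61.7 at day 0, 198 at day 3 and 95.9 at day 7, and 8 astroglial markers reached 3580 at day 7. In such bulk libraries fewer cells of a type and less RNA per cell cannot be told apart.

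The summed level of the guidance genes was highest late in the course. Their summed TPM averaged 828 at day 0, 779 at day 0.5, 1288 at day 2, 2347 at day 4, 2835 at day 6 and 2789 at day 7. The highest mean TPM fell at day 0 in 6 genes, at days 0.5 to 1.5 in 2, at days 2 to 3 in 8, at days 3.5 to 5 in 13 and at days 6 and 7 in 36. In CPM (counts scaled to each library's total) the same windows held 6, 5, 6, 14 and 34 genes. In 37 genes the highest mean was at least 10 times the lowest, and in 7 it was less than 3 times the lowest. The shares of all tested genes in these windows and ranges were not determined, so these counts have no background beside them. All 65 changed over the 12 time points (F test over the course), which 96.1% of all tested genes did.

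**Figure D1:**
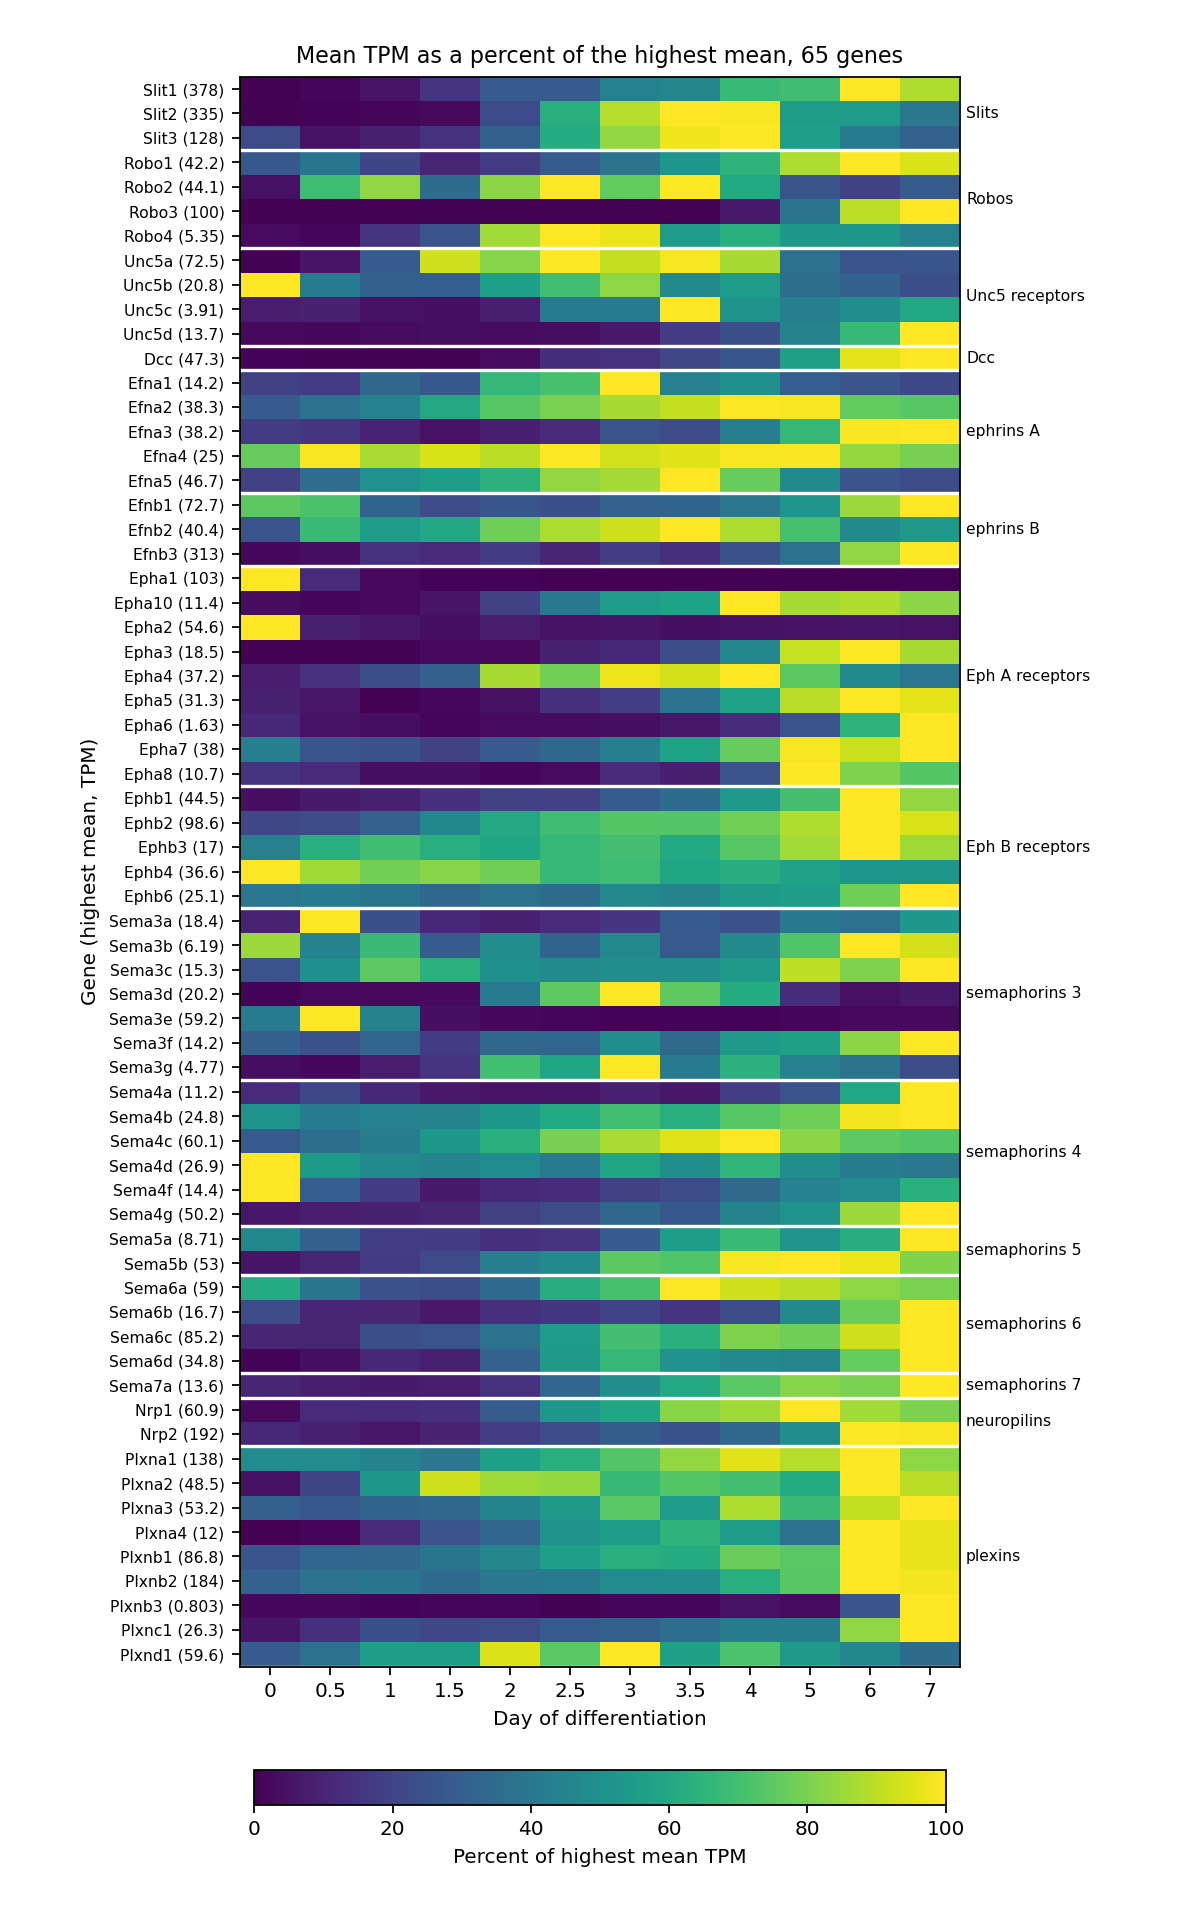
Mean TPM of the 65 genes (rows, grouped by family) at the 12 time points (columns, in days), coloured as a percent of each gene's own highest mean, which is printed after its symbol. Most rows are brightest at the right, 36 of them at day 6 or 7, while Epha1, Epha2, Ephb4, Sema4d, Sema4f and Unc5b are brightest at day 0.

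The 4 successive comparisons differed in balance. At day 0.5 against day 0, 47 of 65 were called, where 54.3% of all tested genes were called. Of these 30 were higher (27.6% of all tested genes) and 17 lower (26.7% of all tested genes). For day 2 against day 0.5 the count was 55, beside 67.9% of all tested genes, with 37 higher (33.9%) and 18 lower (34.0%). For day 4 against day 2 it was 54, beside 64.9%, with 45 higher (33.1%) and 9 lower (31.8%). For day 7 against day 4 it was 61, beside 66.3%, with 39 higher (33.5%) and 22 lower (32.9%). The median log2 fold change over the 65 genes was 0.04, 0.45, 0.48 and 0.33, while that over all tested genes was at most 0.01. The share of all tested genes called in the same direction in all 4 comparisons was not determined. Among the 65, called higher in all 4 comparisons were 9 genes (Efnb3, Ephb1, Ephb2, Plxna4, Plxnb1, Plxnc1, Sema4g, Sema6d and Slit1), and called lower in all 4 was 1 (Ephb4). The first of these calls was lost with limma on TPM for Ephb2 (adjusted p 0.116 with a pseudocount of 1 and 0.105 with 0.1) and for Plxna4 (0.0806 with a pseudocount of 1). That of Sema4g was lost without day 0 replicate 1 (edgeR adjusted p 0.0611). The call of Sema6d at day 4 against day 2 was lost without day 2 replicate 2 (edgeR adjusted p 0.0672). Changes of at least 2-fold numbered 12 higher and 7 lower, 24 and 10, 24 and 2, and 17 and 10. The share of all tested genes changed by at least 2-fold was not determined, so these counts have no background beside them. On the TPM scale the median of all genes was itself shifted upwards at day 4 against day 2, by 0.13 with a pseudocount of 1 and by 0.19 with 0.1, and 48 or 49 of the 65 were then higher and 7 lower.

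Slits, the secreted ligands of Robos, had become the most abundant family of ligands by day 2 after a low at day 0.5. Their summed TPM averaged 31.5 at day 0, 14.2 at day 0.5, 222 at day 2, 715 at day 4 and 506 at day 7. Slit1 (chromosome 19, 41600257 to 41743665, minus strand, GRCm38) was the most abundant from day 1 to day 2. Its libraries held 4, 4.26 and 6.2 TPM at day 0.5, against 0.79, 0.86 and 1.01 TPM at day 0 (log2 fold change 2.39, SE 0.14, edgeR adjusted p 3.59e-16). At day 2 they held 111, 97.2 and 113 TPM (log2 fold change 4.47, SE 0.093, edgeR adjusted p 1.22e-28 against day 0.5). It went on to 318, 431 and 384 TPM at day 6, its highest mean and also its widest spread among replicates. Slit2 (chromosome 5, 47983138 to 48307733, plus strand) stayed at or below 8.29 ± 0.934 TPM to day 1.5. It then stood at 87.2, 70.6 and 67.8 TPM at day 2, 217, 209.8 and 207 TPM at day 2.5 and 349, 325 and 331 TPM at day 3.5, with no overlap between any of these days. The change at day 2 against day 0.5 was log2 fold change 3.88, SE 0.083, edgeR adjusted p 2.05e-28. At day 7 Slit2 held 134 ± 11.2 TPM, against 332 ± 16.8 TPM at day 4. The size of this fall differed between the units, with log2 fold change -0.57, SE 0.063, edgeR adjusted p 1.20e-09 on the counts and -1.30 with limma on log2(TPM + 1) (adjusted p 6.11e-11). TPM is corrected for the estimated length of the transcripts present and the counts are not, and the part of this in the difference was not tested. The units also differed at day 2 against day 0.5, where limma on log2(TPM + 0.1) gave 4.66.

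Slit3 (chromosome 11, 35121224 to 35708507, plus strand) differed from both at the start, since it was already present in neuromesodermal progenitors. Its libraries had 6.59, 6.19 and 6.48 TPM at day 0.5, against 26.2, 27.8 and 31.4 TPM at day 0 (log2 fold change -2.15, SE 0.08, edgeR adjusted p 1.71e-21), the third largest fall of any of the 65 genes in that comparison. From there it climbed to 39.2 ± 2 TPM at day 2 and 128 ± 7.85 TPM at day 4 and was back at 40.0 ± 2.96 TPM at day 7 (-1.41 for day 7 against day 4, edgeR adjusted p 1.74e-18). By day 7 Slit1 therefore made up most of the Slit transcripts, at 332 ± 7.87 TPM, whereas at day 3.5 Slit2 was the most abundant of the 3.

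**Figure D2:**
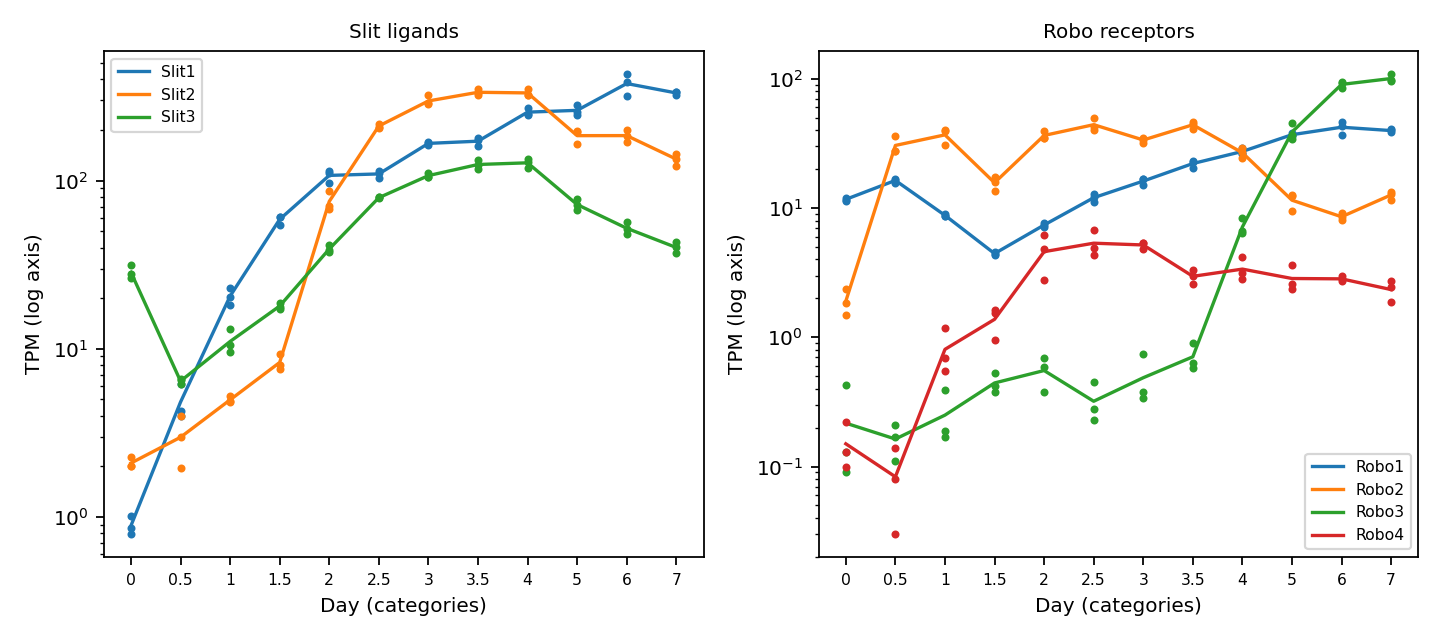
TPM (log axis) of Slit ligands (left) and Robo receptors (right) at the 12 time points (spaced evenly), with a point for each of 3 replicates and a line through the means. Slit3 dips at day 0.5, Slit2 leaves its low level between days 1.5 and 2, and Robo3 lies below 1 TPM until day 3.5 and near 100.5 TPM at day 7.

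Among the Robo receptors, Robo2 rose most at the first step and Robo3 was the last to rise. Robo2, with Robo1 the main Slit receptor of spinal axons, had 27.7, 27.5 and 36.2 TPM at day 0.5, against 1.85, 2.38 and 1.48 TPM at day 0 (log2 fold change 4.29, SE 0.11, edgeR adjusted p 4.46e-26), the largest rise of any of the 65 genes at that step. Its later course was uneven, with means of 36.8 TPM at day 1, 15.7 at day 1.5, 36.4 at day 2, 44.1 at day 2.5 and 44.1 at day 3.5, and all 3 day 1.5 libraries (13.6, 17.4 and 16 TPM) lay below all those of days 1 and 2. At day 7 Robo2 was at 12.6 ± 0.922 TPM, against 26.8 ± 2.38 TPM at day 4 (log2 fold change -1.17, SE 0.081, edgeR adjusted p 1.51e-14). Robo1 was, like Robo2, higher at day 0.5 than at day 0 and low at day 1.5, and differed from it later. It stood at 16.4 ± 0.564 TPM at day 0.5, against 11.7 ± 0.304 TPM at day 0 (0.49, edgeR adjusted p 1.06e-08). Its later means were 4.44 ± 0.095 TPM at day 1.5, 7.39 ± 0.296 TPM at day 2, 27.4 ± 1.58 TPM at day 4 and 42.2 ± 5 TPM at day 6. It fell at day 2 against day 0.5 (-1.26, edgeR adjusted p 8.69e-19), rose at day 4 against day 2 (1.70, edgeR adjusted p 2.82e-22) and rose at day 7 against day 4 (0.48, edgeR adjusted p 2.02e-09).

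Robo3, which in mouse commissural neurons is required for crossing the midline, was below 1 TPM in every library up to day 3.5. Its libraries had 0.91, 0.58 and 0.63 TPM at day 3.5, 6.44, 8.33 and 6.67 TPM at day 4, 45.1, 36.7 and 34.4 TPM at day 5 and 95.3, 109 and 97.3 TPM at day 7. The changes were log2 fold change 3.72, SE 0.17, edgeR adjusted p 3.99e-19 for day 4 against day 2 and log2 fold change 3.78, SE 0.095, edgeR adjusted p 2.60e-26 for day 7 against day 4, the second the largest rise at that step among genes of at least 1 TPM. Robo4, best known as an endothelial receptor, followed neither. Its 3 libraries summed to 809 counts at day 2, against 13 at day 0.5, a ratio of 61.8 after scaling for library size (95% interval 36 to 117, counting error only). It was highest at day 2.5 (4.91, 4.31 and 6.82 TPM) and lower at day 4 than at day 2 (log2 fold change -0.67, SE 0.20, edgeR adjusted p 0.00313). In TPM the libraries of these days overlapped, and the call was lost with limma (adjusted p 0.119 and 0.233 with pseudocounts of 1 and 0.1).

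Robo3 and Robo4 are neighbours on chromosome 9. Robo4 runs from 37401897 to 37415115 on the plus strand and Robo3 from 37415669 to 37433246 on the minus strand, so the genes converge with 553 bases between their ends. Because neighbouring genes of 1 family had such different courses, their promoters are printed below, each as the 250 bases before the RefSeq start on GRCm38.p6, 5′ to 3′ on the gene's own strand (Robo3 at chr9:37433176-37433425, Robo4 at chr9:37401722-37401971). Capitals mark matches, on either strand, to the E-box letters CAGCTG and to the letters AGGTCA, a core bound by retinoic acid receptors.
Robo3: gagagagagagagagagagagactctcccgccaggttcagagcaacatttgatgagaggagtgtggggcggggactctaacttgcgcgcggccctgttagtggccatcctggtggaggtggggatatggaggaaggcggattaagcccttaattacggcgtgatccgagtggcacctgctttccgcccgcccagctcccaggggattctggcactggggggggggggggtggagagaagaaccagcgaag
Robo4: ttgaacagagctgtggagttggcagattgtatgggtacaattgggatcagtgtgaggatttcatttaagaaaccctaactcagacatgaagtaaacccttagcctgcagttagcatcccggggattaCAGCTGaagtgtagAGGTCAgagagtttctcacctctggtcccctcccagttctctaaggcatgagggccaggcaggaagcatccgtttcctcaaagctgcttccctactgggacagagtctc
The Robo4 window held 1 CAGCTG and 1 AGGTCA, and the Robo3 window neither. Over the 56 of the 65 genes with a RefSeq promoter entry, 11 (19.6%) held CAGCTG in such a window and 9 (16.1%) held AGGTCA, compared with 14.7% and 15.8% of all 27025 genes with an entry. The second E-box CAGATG was in 5 (8.93%, against 16.3% of all genes), and GACCACCC, a core of the Gli motif, was in 0 of 56 (0.814% of all genes). These are matches of letters in a short window and say nothing of binding.

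Among Dcc and the Unc5 receptors, which bind netrins, Unc5b was the most abundant in neuromesodermal progenitors, Unc5a from day 1 to day 4 and Dcc at days 6 and 7. Unc5a had 3.33, 3.33 and 4.54 TPM at day 0.5, against 0.33, 0.6 and 0.46 TPM at day 0 (log2 fold change 3.04, SE 0.19, edgeR adjusted p 1.41e-15), and 59.3 ± 6.48 TPM at day 2 (3.84 against day 0.5). It then held a plateau, with means between 59.3 and 72.5 TPM from day 1.5 to day 4, and no called change at day 4 against day 2 (-0.12, edgeR adjusted p 0.168). At day 7 it stood at 19.5 ± 1.14 TPM, against 63.1 ± 3.6 TPM at day 4 (log2 fold change -1.76, SE 0.081, edgeR adjusted p 2.87e-19). Exons of Unc5a overlap Hk3 on the opposite strand, and it is not stated whether counting used strand.

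Dcc, the receptor through which netrin-1 attracts axons, was below 0.5 TPM in every library up to day 1.5. It reached 1.54, 1.38 and 1.32 TPM at day 2, 6.44, 5.92 and 6.18 TPM at day 2.5, 14.3, 11.6 and 12.2 TPM at day 4 and 48.6, 45.4 and 47.8 TPM at day 7. It was called higher at each step after day 0.5, by 2.00, 2.98 and 1.85 on the log2 scale (edgeR adjusted p 2.42e-11, 1.80e-22 and 9.99e-21). Dcc overtook Unc5a between day 4 and day 6 in mean TPM, which is corrected for length.

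Unc5d followed Dcc at a lower level, with 0.517 ± 0.0814 TPM at day 2.5, 3.35 ± 0.561 TPM at day 4 and 13.7 ± 0.35 TPM at day 7 (log2 fold change 1.95, SE 0.12, edgeR adjusted p 7.39e-16). Unc5c peaked at only 3.91 ± 0.2 TPM on day 3.5. Unc5b was the exception in being highest in neuromesodermal progenitors: 8.85, 8.45 and 8.55 TPM at day 0.5, against 19.1, 21.3 and 22 TPM at day 0 (log2 fold change -1.27, SE 0.12, edgeR adjusted p 4.90e-11). The ligand Ntn1, listed with the floor plate markers and not among the 65, averaged 68.6 ± 2.03 TPM at day 0.5, against 27 ± 1.42 TPM at day 0, and 1390 ± 53.6 TPM at day 7, against 595 ± 23 TPM at day 4 (log2 fold change 1.18, SE 0.056, edgeR adjusted p 6.79e-19).

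**Figure D3:**
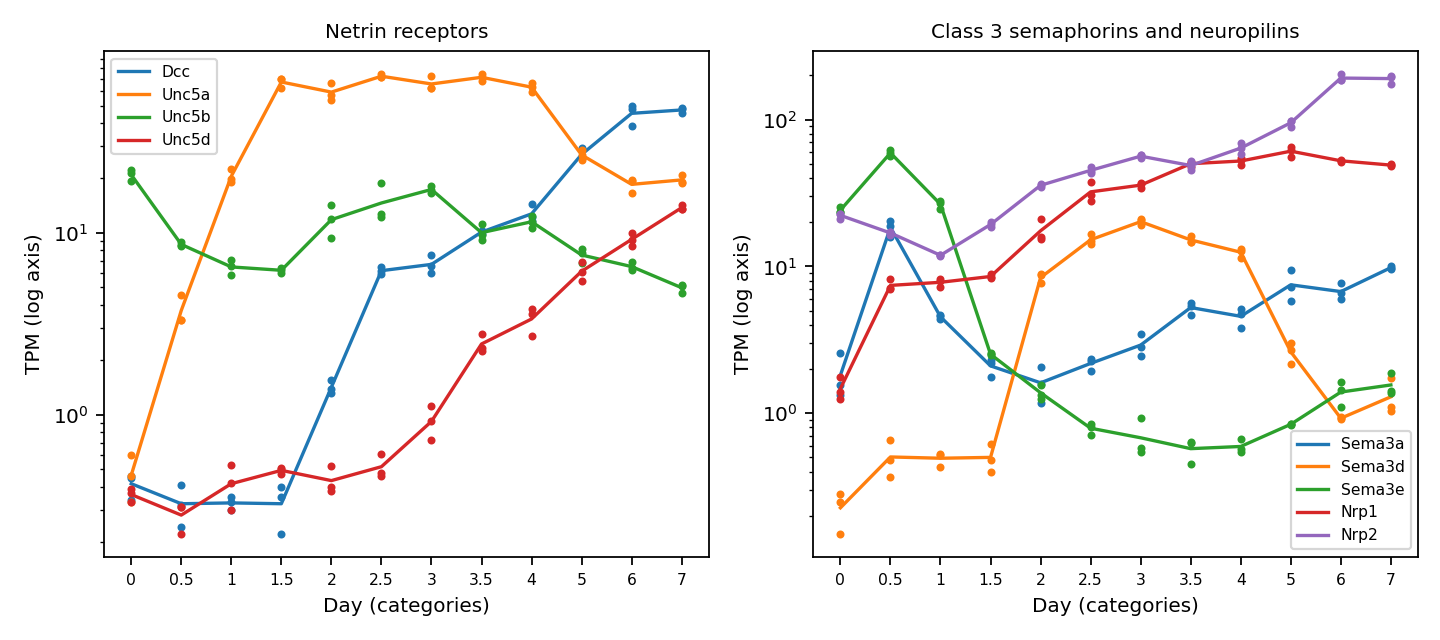
TPM (log axis) of the netrin receptors Dcc, Unc5a, Unc5b and Unc5d (left) and of class 3 semaphorins with their co-receptors (right) at the 12 time points (spaced evenly), with 3 replicates as points and means as lines. Unc5a holds a plateau from day 1.5 to day 4 while Dcc rises, and Sema3a and Sema3e peak at day 0.5.

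Eph A receptors changed in composition. At day 0.5 against day 0, 6 of 9 fell and 1 rose, at day 2 against day 0.5 4 fell and 4 rose, at day 4 against day 2 6 rose and 2 fell, and at day 7 against day 4 5 rose and 2 fell. Of all tested genes, 26.7% fell and 27.6% rose at the first of these steps, and 31.8% to 34.0% went each way at each later step. Epha1 and Epha2, both known from epithelia and the early embryo, were the most abundant Eph A receptors at day 0. Epha1 (chromosome 6, 42358487 to 42373268, minus strand, with exons that overlap Zyx on the opposite strand) had 13.3, 13.4 and 11.4 TPM at day 0.5, against 101, 101 and 106 TPM at day 0 (log2 fold change -3.03, SE 0.086, edgeR adjusted p 8.73e-25). By day 2 it was at 0.92, 0.7 and 0.91 TPM (log2 fold change -4.03, SE 0.13, edgeR adjusted p 6.36e-24 against day 0.5). Epha2 had 5.31, 5.17 and 4.26 TPM at day 0.5, against 52, 56.2 and 55.6 TPM at day 0 (log2 fold change -3.46, SE 0.10, edgeR adjusted p 3.23e-24), the largest fall of any of the 65 genes at that step. It stayed between 2.17 and 4.25 TPM in mean from day 1 on. Its further fall at day 2 against day 0.5 (-0.32, edgeR adjusted p 0.0112) lost its call when day 0.5 replicate 1, day 0.5 replicate 2 or day 2 replicate 2 was left out (edgeR adjusted p 0.0770, 0.0615 and 0.142).

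In their place came Epha4 first, then Epha3, Epha5, Epha8 and Epha10. Epha7 was present throughout, with a lowest mean of 7.32 ± 0.547 TPM at day 1.5. Epha4, which in mouse limb-innervating motor neurons steers axons to the dorsal limb, had 32.4, 32.5 and 32.3 TPM at day 2, against 4.7, 6.76 and 4.51 TPM at day 0.5 (log2 fold change 2.58, SE 0.069, edgeR adjusted p 1.02e-25). It kept means between 29.3 and 37.2 TPM to day 4 and had 14.6 ± 1.35 TPM at day 7, against 37.2 ± 1.94 TPM at day 4 (log2 fold change -1.51, SE 0.063, edgeR adjusted p 1.72e-20). Over these days the motor neuron marker sum averaged 137 at day 2, 280.2 at day 3 and 208 at day 4. Neuronal and progenitor marker sums were also higher at day 4 (3791 and 3056) than at day 2 (869 and 2334). The part of any cell type in the course of Epha4 was not tested. Epha3 and Epha5, receptors for ephrins A, rose later. Epha3 had 9.43, 8.71 and 7.48 TPM at day 4, against 0.41, 0.61 and 0.36 TPM at day 2 (log2 fold change 4.00, SE 0.14, edgeR adjusted p 1.55e-22), the largest rise of any of the 65 at that step. Epha5 had 19.1, 18.2 and 16.6 TPM at day 4, against 1.39, 1.47 and 1.47 TPM at day 2 (log2 fold change 3.48, SE 0.11, edgeR adjusted p 2.34e-23). It had not begun from nothing, since it averaged 2.81 ± 0.361 TPM at day 0 and 0.183 ± 0.131 TPM at day 1.

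Epha7 and Epha8 also dipped and returned. Epha7 averaged 16.4 ± 1.38 TPM at day 0, 7.32 ± 0.547 TPM at day 1.5 and 37.5 ± 1.64 TPM at day 5, and Epha8 averaged 1.61 ± 0.228 TPM at day 0, 0.193 ± 0.104 TPM at day 2 and 10.7 ± 1.22 TPM at day 5. For Epha8 the change was log2 fold change -2.84, SE 0.23, edgeR adjusted p 4.95e-13 at day 2 against day 0.5 and log2 fold change 3.56, SE 0.21, edgeR adjusted p 2.49e-16 at day 4 against day 2. The call of Epha7 at day 7 against day 4 (0.16) was lost without day 4 replicate 2 (edgeR adjusted p 0.0720), and that of Epha10 (-0.34) without day 4 replicate 3 (0.0556). Epha6 was the weakest, at 1.25, 2.07 and 1.57 TPM on day 7, against 0.18, 0.17 and 0.27 TPM on day 4 (log2 fold change 2.94, SE 0.35, edgeR adjusted p 5.82e-09).

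Eph B receptors changed less from step to step. Ephb2, the most abundant of them and a receptor for ephrins B, averaged 20.9 ± 0.583 TPM at day 0, 59.6 ± 1.13 TPM at day 2, 77.5 ± 2.27 TPM at day 4 and 98.6 ± 10.2 TPM at day 6. It was called higher in each of the 4 comparisons, by at most 1.40 on the log2 scale, the call at day 0.5 against day 0 (0.28) being lost with limma on TPM. Ephb1 did the same from a lower base, with 1.87 ± 0.437 TPM at day 0 and 44.5 ± 4.81 TPM at day 6. Ephb4, known as the venous receptor of Efnb2 and the gene called lower at every step, had 36.6 ± 2.19 TPM at day 0 and 19.4 ± 0.499 TPM at day 7. Ephb3 changed by at most 0.54 on the log2 scale at any step. Its call at day 2 against day 0.5 (-0.18) was lost without replicate 1 of day 0.5 or of day 2 (edgeR adjusted p 0.0603 and 0.107). That at day 7 against day 4 (0.16) was lost without day 4 replicate 1 or day 7 replicate 2 (0.163 and 0.0783). Ephb6, which lacks kinase activity, was highest at day 7 (25.1 ± 1.95 TPM).

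Ephrin ligands split into transient and late members. Efna5, a ligand of several Eph A receptors, averaged 9.08 ± 0.354 TPM at day 0, 23.6 ± 3.9 TPM at day 1 and 46.7 ± 1.41 TPM at day 3.5. At day 7 its libraries had 10.5, 9.81 and 11.8 TPM, against 37.7, 33.5 and 36.2 TPM at day 4 (log2 fold change -1.99, SE 0.062, edgeR adjusted p 8.41e-24). Efna2 rose more slowly to 38.3 ± 0.815 TPM at day 4 and was at 28.3 ± 0.399 TPM at day 7 (-0.49, edgeR adjusted p 2.46e-10). Efna3 was the reverse, with 6.57 ± 0.542 TPM at day 0, 1.93 ± 0.717 TPM at day 1.5 and 38.2 ± 2.19 TPM at day 7. It was the only ephrin A that rose at day 7 against day 4 (log2 fold change 1.17, SE 0.11, edgeR adjusted p 9.88e-12), where the other 4 fell. Of all tested genes, 33.5% rose and 32.9% fell at that step. Efna4 stayed within means of 19.2 and 25 TPM throughout. Exons of Efna3 and of Efna4 overlap a gene of the opposite strand.

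The ephrins B, transmembrane ligands that also signal backwards into their own cell, parted most widely. Efnb3, in mouse a midline cue in the spinal cord that stops axons carrying Epha4, had 13.8, 12.3 and 14.1 TPM at day 0.5, against 5.81, 7.16 and 7.08 TPM at day 0 (log2 fold change 1.02, SE 0.08, edgeR adjusted p 8.16e-13). It averaged 55.7 ± 0.627 TPM at day 2 and 77.3 ± 5.23 TPM at day 4. Its day 7 libraries had 320.4, 332 and 286 TPM, against 78.2, 82.1 and 71.7 TPM at day 4 (log2 fold change 1.96, SE 0.061, edgeR adjusted p 7.45e-24), and it was the most abundant ephrin on both days. Efnb2, the arterial ligand of Ephb4, rose early, with 27.3, 26.6 and 28.7 TPM at day 0.5, against 10.1, 10.4 and 10.8 TPM at day 0 (log2 fold change 1.40, SE 0.066, edgeR adjusted p 1.35e-18). It stayed between 22.2 and 40.4 TPM in mean to day 5, and fell at day 7 against day 4 (-0.82, edgeR adjusted p 2.53e-13). Efnb1 formed a trough. Its mean was 54.4 ± 3.18 TPM at day 0, 16.6 ± 0.782 TPM at day 1.5, 28.9 ± 1.61 TPM at day 4 and 72.7 ± 3.95 TPM at day 7. The changes were log2 fold change -1.53, SE 0.055, edgeR adjusted p 3.31e-22 for day 2 against day 0.5 and log2 fold change 1.28, SE 0.054, edgeR adjusted p 2.03e-20 for day 7 against day 4.

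**Figure D4:**
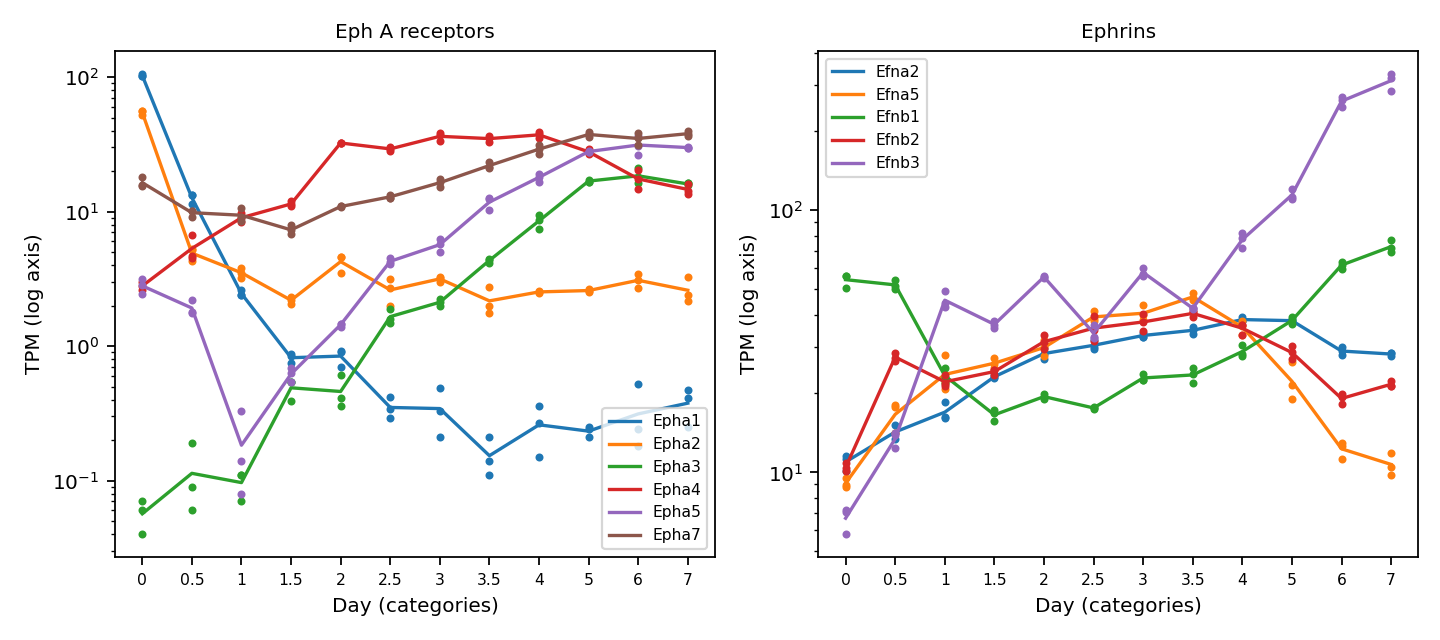
TPM (log axis) of 6 Eph A receptors (left) and 5 ephrins (right) at the 12 time points (spaced evenly), with 3 replicates as points and means as lines. Epha1 and Epha2 drop after day 0 as Epha4 and then Epha3 and Epha5 come up, and Efna5 falls after day 3.5 while Efnb3 climbs to a mean of 313 TPM at day 7.

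Class 3 semaphorins, the secreted members, gave the sharpest pulses. Sema3a, the classic repellent that acts through Nrp1, had 20.5, 18.9 and 15.9 TPM at day 0.5, against 1.56, 2.55 and 1.33 TPM at day 0 (log2 fold change 3.52, SE 0.12, edgeR adjusted p 2.67e-22). By day 1 it was at 4.64, 4.6 and 4.35 TPM and by day 2 at 1.59, 2.07 and 1.17 TPM (log2 fold change -3.87, SE 0.13, edgeR adjusted p 1.70e-23 for day 2 against day 0.5). Sema3e, which binds Plxnd1 without a neuropilin, had 58.8, 62.1 and 56.9 TPM at day 0.5, against 25.4, 23.4 and 23.6 TPM at day 0 (log2 fold change 1.25, SE 0.067, edgeR adjusted p 2.97e-17). It was at 27.1, 27.8 and 24.4 TPM at day 1, 2.56, 2.48 and 2.52 TPM at day 1.5 and 1.34, 1.24 and 1.55 TPM at day 2. The change at day 2 against day 0.5 (log2 fold change -5.51, SE 0.091, edgeR adjusted p 3.68e-31) was the largest fall of any of the 65 genes in the 4 comparisons. Both pulses stood clear of the replicate spread, with every day 0.5 library above every day 0 and day 1 library.

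Sema3d made a later pulse. Its means were 0.5 ± 0.111 TPM at day 1.5, 8.39 ± 0.644 TPM at day 2, 20.2 ± 0.962 TPM at day 3, 12.5 ± 0.959 TPM at day 4 and 2.62 ± 0.428 TPM at day 5. The rise at day 2 against day 0.5 was log2 fold change 4.09, SE 0.12, edgeR adjusted p 8.30e-25, and the fall at day 7 against day 4 (log2 fold change -3.28, SE 0.10, edgeR adjusted p 4.70e-24) was the largest at that step. Sema3c and Sema3f, ligands that use Nrp2 among others, were highest at day 7, at 15.3 ± 0.698 and 14.2 ± 2.01 TPM. Sema3c rose at day 0.5 against day 0 (0.92, edgeR adjusted p 4.05e-10) and at day 7 against day 4 (0.86, edgeR adjusted p 9.33e-11), with no call between. Sema3f was lowest at day 1.5 (2.53 ± 0.6 TPM) and was called higher at each step after day 0.5. Sema3b stayed at or below 6.19 TPM in mean. Sema3g was near 0 until day 1 and reached 4.77 ± 0.455 TPM at day 3.

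The neuropilin co-receptors rose over a longer time. Nrp1, which binds Sema3a and also VEGF, had 7, 7.08 and 8.18 TPM at day 0.5, against 1.4, 1.24 and 1.77 TPM at day 0 (log2 fold change 2.34, SE 0.14, edgeR adjusted p 1.40e-15). It climbed to 17.5 ± 3.1 TPM at day 2, 52.2 ± 3.08 TPM at day 4 and 60.9 ± 5.04 TPM at day 5, with no called change at day 7 against day 4 (-0.15, edgeR adjusted p 0.12). Nrp2, the receptor of Sema3f, first fell (-0.39 at day 0.5 against day 0, edgeR adjusted p 2.99e-07) to 11.9 ± 0.151 TPM at day 1. Its largest rise came late, with 196, 198 and 176 TPM at day 7, against 69.4, 58.6 and 63.7 TPM at day 4 (log2 fold change 1.52, SE 0.053, edgeR adjusted p 1.30e-22).

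Membrane-bound semaphorins, the 13 members of classes 4 to 7, were divided early and rose together later. Of the 13, 4 rose and 6 fell at day 0.5 against day 0 (27.6% and 26.7% of all tested genes). At day 2 against day 0.5, 7 rose and 5 fell (33.9% and 34.0%). At day 4 against day 2 all 13 were called higher, where 33.1% of all tested genes were, and at day 7 against day 4, 9 were called higher and 4 lower (33.5% and 32.9%). Sema6d, a ligand of Plxna1, had 1.7, 1.17 and 1.37 TPM at day 0.5, against 0.27, 0.31 and 0.59 TPM at day 0 (log2 fold change 1.88, SE 0.22, edgeR adjusted p 8.74e-09), and 34.8 ± 1.81 TPM at day 7. Its change at day 4 against day 2 (0.30) lost its call without day 2 replicate 2 (edgeR adjusted p 0.0672). Sema6a, a ligand of Plxna2 and Plxna4, dipped to 14.2 ± 0.775 TPM at day 1.5 and reached 59 ± 2.77 TPM at day 3.5. Sema6c was the most abundant class 6 member at 85.2 ± 3.73 TPM on day 7, and Sema6b rose late (log2 fold change 2.01, SE 0.11, edgeR adjusted p 1.31e-17 for day 7 against day 4).

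Within class 4, Sema4d and Sema4f were highest in neuromesodermal progenitors. Sema4d, the ligand of Plxnb1, had 14.8, 15.3 and 13.8 TPM at day 0.5, against 25.5, 28.4 and 26.9 TPM at day 0 (log2 fold change -0.87, SE 0.058, edgeR adjusted p 1.18e-14). Sema4f had 4.57, 4.66 and 3.76 TPM at day 0.5, against 13.8, 14.2 and 15.2 TPM at day 0 (log2 fold change -1.72, SE 0.091, edgeR adjusted p 2.45e-17). Sema4g moved the other way to 50.2 ± 3.66 TPM at day 7, and Sema4a rose late (log2 fold change 2.68, SE 0.17, edgeR adjusted p 9.10e-16 for day 7 against day 4). Sema4c was the most abundant class 4 member over the course, at 60.1 ± 4.45 TPM on day 4, and Sema4b was highest at day 7 (24.8 ± 0.515 TPM). Of class 5, Sema5b climbed to 53 ± 0.946 TPM at day 5, while Sema5a formed a trough, with 4.07 ± 0.0529 TPM at day 0, 1.18 ± 0.152 TPM at day 2 and 8.71 ± 0.329 TPM at day 7. Sema7a, which is linked to the membrane by a lipid anchor and binds Plxnc1, rose by 2.15 on the log2 scale at day 4 against day 2 (SE 0.12, edgeR adjusted p 2.30e-17).

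Plexins, the signalling receptors of semaphorins, mostly rose without pulses like those of class 3 semaphorins. At day 0.5 against day 0, 6 of 9 were called higher and 0 lower (27.6% and 26.7% of all tested genes). At day 2 against day 0.5 again 6 were called higher and 0 lower (33.9% and 34.0% of all tested genes). At day 4 against day 2, 6 were called higher and 2 lower (33.1% and 31.8%), and at day 7 against day 4, 7 were called higher and 2 lower (33.5% and 32.9%). Plxna2 and Plxna4 rose early from low levels. Plxna2 had 9.13, 9.26 and 12.1 TPM at day 0.5, against 2.05, 2.05 and 2.17 TPM at day 0 (log2 fold change 2.29, SE 0.09, edgeR adjusted p 6.57e-21), and 44.9 ± 2.84 TPM at day 1.5. It fell at day 4 against day 2 (-0.50, edgeR adjusted p 2.10e-07), rose at day 7 against day 4 (0.31, edgeR adjusted p 3.35e-04) and had its highest mean at day 6 (48.5 ± 7.58 TPM). Plxna4 had 4.28, 3.65 and 3.82 TPM at day 2, against 0.17, 0.23 and 0.19 TPM at day 0.5 (log2 fold change 4.19, SE 0.15, edgeR adjusted p 1.42e-22). It was highest at day 6 (12 ± 1.94 TPM).

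Plxnb2 and Plxna1 were the most abundant plexins over the course, Plxnb2 with 58 ± 3.12 TPM at day 0 and 184 ± 11.1 TPM at day 6, and Plxna1 with 66.8 ± 4.28 TPM at day 0 and 138 ± 15.6 TPM at day 6. Plxnb1 was called higher at all 4 steps and reached 86.8 ± 8.87 TPM at day 6, and Plxnc1 reached 26.3 ± 0.601 TPM at day 7. Plxna3 averaged 16.2 ± 0.876 TPM at day 0 and 53.2 ± 2.85 TPM at day 7. Its call at day 7 against day 4 (0.17, edgeR adjusted p 0.0433) was lost under most alternatives, including the fit with the replicate number as a block (adjusted p 0.0515). Plxnb3 had 0 to 4 counts in every library before day 6. Its 3 libraries summed to 199 counts at day 7, against 4 at day 4, a scaled ratio of 44.9 (95% interval 17.3 to 166, counting error only). Plxnd1, the receptor of Sema3e, was high between days 2 and 4 and fell at day 7 against day 4 (log2 fold change -1.00, SE 0.11, edgeR adjusted p 4.32e-10), after a rise at day 2 against day 0.5 (1.30, edgeR adjusted p 4.15e-13), the step at which Sema3e fell.

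Among the replicates of days 2 and 2.5, a set of 5 genes (Robo4, Sema3g, Plxnd1, Efna1 and Unc5b) was highest in the same libraries as the endothelial markers. At day 2 the summed TPM of the 15 endothelial markers was 204, 129 and 150.0 in replicates 1, 2 and 3, and at day 2.5 it was 122, 130 and 212. Robo4 had 6.18, 2.79 and 4.82 TPM at day 2 and 4.91, 4.31 and 6.82 TPM at day 2.5. Sema3g had 4.64, 2.26 and 3.05 TPM at day 2 and 2.55, 2.39 and 3.53 TPM at day 2.5, and Plxnd1 had 68.7, 45.8 and 54.7 TPM at day 2 and 40.8, 38.9 and 53.5 TPM at day 2.5. Replicate 1 of day 2 and replicate 3 of day 2.5 were thus highest in each of these genes, in Efna1 (12.7, 6.67 and 9.19 TPM at day 2 and 7.78, 8 and 14.5 TPM at day 2.5) and in Unc5b (14.2, 9.3 and 11.9 TPM and 12.6, 12.2 and 18.9 TPM). The order of the remaining libraries was not always shared. At day 2.5 the marker sum and Efna1 were lower in replicate 1 than in replicate 2, while Robo4, Sema3g, Plxnd1 and Unc5b were higher.

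All 15 endothelial markers had those same libraries highest, as did 22 of the 65 guidance genes (33.8%) and 14.8% of 18088 genes with at least 10 counts in 3 libraries. In 10 of the 22 (the 5 named with Nrp1, Robo3, Sema3f, Sema4f and Sema6d) the highest library was at least 1.2 times the lowest on both days. Replicate 1 of day 2 and replicate 3 of day 2.5 were also highest in summed TPM of other marker lists. Neuronal markers summed to 918, 888 and 803 at day 2 and 2286, 2284 and 2666 at day 2.5. Motor neuron, blood and microglia, mesenchymal, neural crest, and endoderm and epithelium sums were highest in these libraries too. Progenitor, floor plate, astroglial and oligodendrocyte lineage sums were not. The 5 genes were picked after their values were seen, so sharing their highest libraries with the markers is no test of a link. The part of endothelial or other cells in their changes was not tested. The calls of Unc5b at day 2 against day 0.5 (0.33, edgeR adjusted p 0.0164) and of Efna1 at day 4 against day 2 (-0.60, edgeR adjusted p 0.00652) were each lost without day 2 replicate 1 (adjusted p 0.151 and 0.103), and that of Efna1 also with limma on TPM (0.106 and 0.122). The steps matched the endothelial marker list only in part. At each step 26.7% to 34.0% of all tested genes were called in each direction. At day 0.5 against day 0, 11 of the 15 endothelial markers rose and 3 fell, while Plxnd1 rose (0.41; lost with limma on TPM), Unc5b fell (-1.27) and Robo4, Sema3g and Efna1 were not called. At day 2 against day 0.5, 11 markers rose and 2 fell, and all 5 genes rose. At day 4 against day 2, 9 markers fell and 1 rose, while Plxnd1 (-0.79), Robo4 and Efna1 fell and Sema3g and Unc5b were not called. At day 7 against day 4, 11 markers fell and 1 rose. All 5 genes then fell, with log2 fold changes of -1.53 for Sema3g, -1.26 for Unc5b, -1.26 for Efna1, -1.00 for Plxnd1 and -0.59 for Robo4. The call of Robo4 was lost without day 7 replicate 3 (edgeR adjusted p 0.0691) and with limma on TPM (0.0613 and 0.117).

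**Figure D5:**
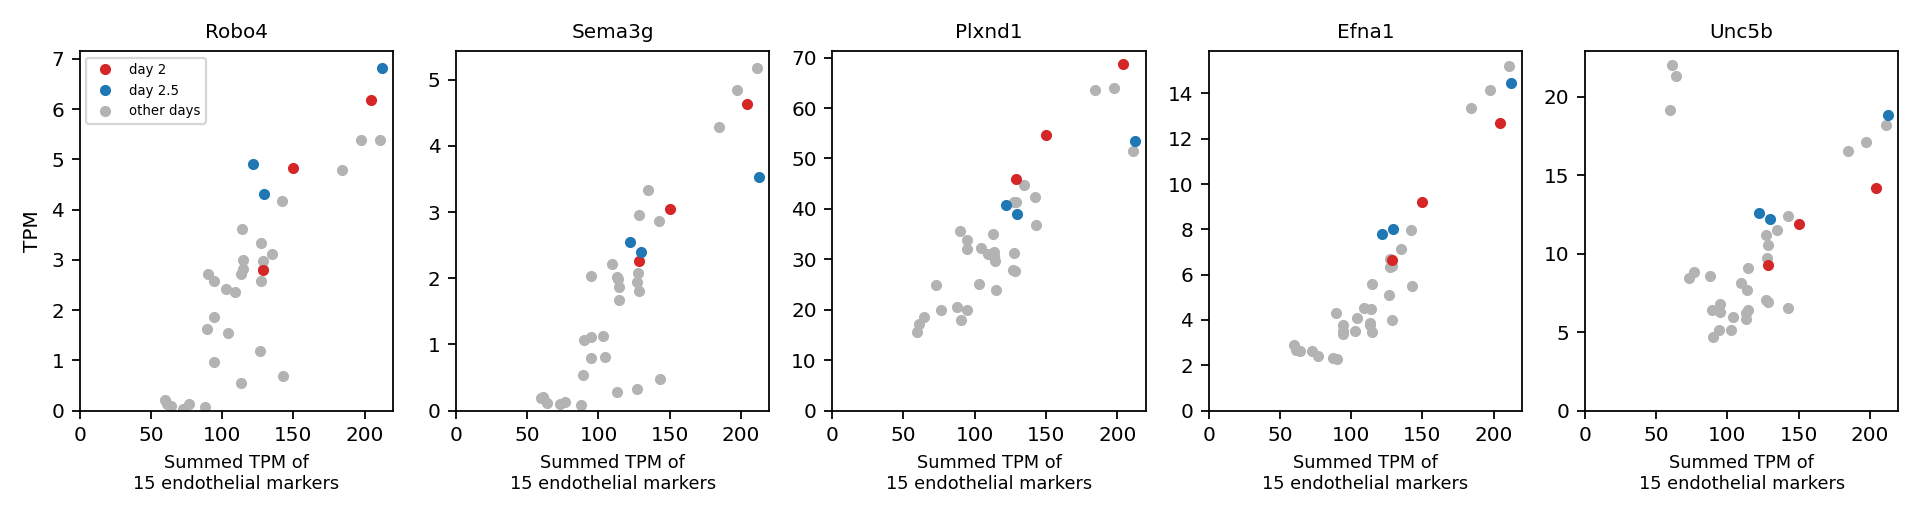
TPM of Robo4, Sema3g, Plxnd1, Efna1 and Unc5b against the summed TPM of 15 endothelial markers, 1 point per library (36 in each panel, day 2 in red, day 2.5 in blue, other days in grey; axes start at 0). The day 2 and day 2.5 libraries with the highest marker sums, 204 and 212, are the highest of their day in all 5 panels, and the 3 libraries of day 0 stand apart for Unc5b.

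Several other marker lists also moved at day 7 against day 4. All 9 mesenchymal, 8 of 8 floor plate, 7 of 8 astroglial and 6 of 7 oligodendrocyte lineage markers rose, while 8 of 8 motor neuron, 6 of 8 progenitor and 4 of 5 blood and microglia markers fell. Of all tested genes 33.5% rose and 32.9% fell. The summed TPM of the 8 progenitor markers was nearly the same on both days, at 3056 on day 4 and 3060 on day 7. The part of these cell types in the changes of the 39 guidance genes that rose and the 22 that fell at this step was not tested.

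The wider guidance pathway was followed in a list of 61 further ligands, adhesion molecules and intracellular mediators, of which 60 matched an ID and 59 were tested. At day 0.5 against day 0, 28 rose and 11 fell, beside 27.6% and 26.7% of all tested genes. At day 2 against day 0.5, 31 rose and 17 fell (33.9% and 34.0% of all tested genes), at day 4 against day 2, 44 and 6 (33.1% and 31.8%), and at day 7 against day 4, 39 and 8 (33.5% and 32.9%). The largest move among those named here was in Cntn2, an adhesion molecule of early spinal axons, which averaged 60.4 ± 5.62 TPM at day 2, against 0.623 ± 0.202 TPM at day 0.5 (log2 fold change 6.51, SE 0.13, edgeR adjusted p 6.57e-29), and fell to 79.2 ± 2.12 TPM at day 7, against 213 ± 8.53 TPM at day 4. L1cam, another axonal adhesion molecule, averaged 84.0 ± 13.7 TPM at day 4, against 13.1 ± 2.75 TPM at day 2 (log2 fold change 2.71, SE 0.099, edgeR adjusted p 5.47e-22). Neo1, the relative of Dcc, varied far less than Dcc, with 97.6 ± 0.987 TPM at day 7, against 81.8 ± 3.28 TPM at day 4 (log2 fold change 0.19, SE 0.038, edgeR adjusted p 4.35e-05), and Draxin, a netrin-binding repellent, averaged 13.5 ± 0.237 TPM at day 7, against 8.23 ± 0.924 TPM at day 4.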

How the data were processed

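The submitters' processing notes name bcl2fastq 2.20.0, RSEM and GRCm38. Aligner, annotation release and use of strand: not given in the sources used here. The authors deposited expected counts from RSEM (estimated, with 6.87% of values not whole) and a table of TPM, whose columns each summed to 999999.21 to 1000000.98. TPM gives shares of transcripts, so a change in abundant transcripts moves the rest. Symbols came from the mouse name table (51633 of 51912 IDs matched) and coordinates from GENCODE M21 on GRCm38, counted from 1. Exons overlap a gene of the opposite strand in Efna3, Efna4, Epha1, Epha6, Epha10, Ephb1, Ephb4, Plxna1, Plxna4, Plxnb1, Sema4c, Unc5a and Unc5c, whose values are uncertain to that extent.

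Expected counts were rounded to whole numbers and filtered with filterByExpr, which kept 17990 of 32047 genes. All 36 libraries entered 1 model of 12 groups with 24 residual degrees of freedom and TMM factors of 0.924 to 1.06, in edgeR 4.0.16 (R 4.3.3), and p-values were adjusted over all 17990 genes. The approximate SE was taken as |log2 fold change| over the root of F, which can be too small near 0 counts. Intervals of count ratios cover counting error only, since without molecular identifiers PCR copies cannot be told apart. The same steps were tested on simulated data. The spread among replicates exceeded counting noise (chi-square per degree of freedom 3.00 to 49.8). No batch or sequencing date was given in the labels.

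The gene families, the other lists and the tests were chosen with earlier results of these data known. Genes given with values were a panel of 40, the 4 largest rises and 4 largest falls among called genes of at least 1 TPM in each comparison, the most abundant gene of each family, and genes whose call changed under an alternative; any other is given by its range or by its highest level. Alternatives were median-of-ratios (RLE) scaling, DESeq2 1.42.0, no filter, the 6 compared libraries alone, a block for replicate number, each library left out, and limma 3.58.1 on log2(TPM + 1) and log2(TPM + 0.1). Promoter sequences are RefSeq's on GRCm38.p6, of which 9 of the 65 genes had no entry in the table used.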

Additional observations from a re-analysis of the deposited data

How the results depend on the processing

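Of 260 gene-by-comparison results, 217 were called, and 192 of these kept their call and direction under every alternative tried. Over 3371 values under the alternatives, 59 lost a call, 22 gained one and 6 changed sign. All 6 were for day 4 against day 2 with limma on TPM and concerned genes not called in edgeR: Efnb2 (0.17 with either pseudocount, against -0.054), Efna4 (0.14 with either, against -0.054) and Efna5 (0.25 with a pseudocount of 1 and 0.26 with 0.1, against -0.041). On that scale 3525 (pseudocount 1) or 3524 (pseudocount 0.1) of all tested genes were lower at day 4 than at day 2, against 5726 in edgeR, and 7691 or 7693 were higher, against 5957. At day 2 against day 0.5 the split was 6672 higher and 4580 lower, or 6832 and 4588, against 6101 and 6118. Among the 65 genes the TPM scale gave 27 or 28 higher and 15 or 16 lower at day 0.5 against day 0, and 37 or 39 higher and 13 or 12 lower at day 2 against day 0.5. With limma on TPM 20 calls were lost under at least 1 of the pseudocounts: at day 0.5 against day 0 Ephb2, Plxna4, Plxnd1, Epha6, Epha10 and Unc5c, at day 2 against day 0.5 Epha2, Epha5, Epha7, Ephb3, Ephb6, Robo2, Sema4d and Sema6a, at day 4 against day 2 Efna1, Epha6 and Robo4, and at day 7 against day 4 Epha10, Plxna3 and Robo4. Leaving out each library in turn gave 46 to 47 called at day 0.5 against day 0, 53 to 56 at day 2 against day 0.5, 53 to 55 at day 4 against day 2 and 59 to 60 at day 7 against day 4. Calls lost without 1 library, beyond those of the later steps named above, were Sema4g and Epha6 at day 0.5 against day 0 (edgeR adjusted p 0.0611 and 0.0502 without day 0 replicate 1, and for Epha6 0.0705 without day 0.5 replicate 1). Same-numbered libraries did not deviate together (correlations -0.06 to 0.06 over the 12 values computed), so the numbers were not taken as pairs, and the replicate block changed 1 call, that of Plxna3 at day 7 against day 4 (adjusted p 0.0515). The day of the highest mean was the same in 52 of 65 genes in CPM, and in 60, 58 and 54 without replicate 1, 2 or 3. Depth limits Plxnb3, Epha6 and the early values of Robo3, Robo4, Epha3, Plxna4 and Dcc.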

Other observations

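Levels at days 1.5, 2.5 and 3.5 did not always lie between those of the neighbouring whole days. Efnb3 averaged 45.4 TPM at day 1, 36.7 at day 1.5, 55.7 at day 2, 34.0 at day 2.5, 57.9 at day 3, 42.3 at day 3.5 and 77.3 at day 4. Mean TPM was lower on all 3 of these days than on both neighbouring days in 6 of the 65 guidance genes (Efnb3, Epha2, Ephb6, Sema3b, Sema3f and Sema4d, 9.23%) and higher at all 3 in 1 (Unc5a, 1.54%). Among 18088 genes with at least 10 counts in 3 libraries, 13.8% were lower and 7.88% were higher in that way. The labels say that medium was changed daily and do not give the hour of collection, and the alternation was noticed after the values were seen. The tested comparisons use whole days and day 0.5. Levels at days 1.5, 2.5 and 3.5 are given in the text as description, and lows or peaks on those days were not separated from this alternation.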
